A study of Mus musculus with 14 samples.

Results

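Transcripts of the Toll-like receptors, of the co-receptor Cd14 and of the adaptor Myd88 were measured in mouse haematopoietic progenitor lines with and without the cell-cycle kinase Cdk6, before and after transformation by the BCR-ABL p210 oncogene. The set was taken by name and held 10 of the 50686 genes listed in each library. These were the surface receptors Tlr1, Tlr2, Tlr4 and Tlr6, the endosomal receptors Tlr7, Tlr8, Tlr9 and Tlr13, and Cd14 and Myd88. The lines are called HPC-LSK, where LSK stands for the bone marrow fraction that lacks lineage markers and carries Sca-1 and Kit, and all were C57BL/6N. Of the 14 RNA sequencing libraries, 4 came from Cdk6 knockout lines carrying BCR-ABL p210 (KO p210) and 3 from wild-type lines carrying it (WT p210). Another 3 came from untransformed knockout lines (KO untransformed) and 4 from untransformed wild-type lines (WT untransformed). BCR-ABL p210 is the fusion kinase of chronic myeloid leukaemia. Both p210 groups are described as grown without added cytokines, although their sample descriptions also carry the word SCF, whose meaning there is not settled. Both untransformed groups received 12.5 ng/ml IL-6 and 2% SCF, so transformation and medium cannot be told apart. The labels give neither the knockout allele, nor the vector that carried p210, nor the age of the mice. A code and a letter in the sample descriptions were read as naming 8 lines, 6 of which appear in both states. Whether lines or replicates came from separate derivations is not stated, so p-values measure only the spread between these libraries.

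Toll-like receptors are innate immune receptors that recognise microbial molecules. Tlr1, Tlr2, Tlr4 and Tlr6 sit at the cell surface, where Tlr2 pairs with Tlr1 or Tlr6 to bind bacterial lipopeptides and Tlr4, helped by Cd14 and Ly96, binds lipopolysaccharide. Tlr7 and Tlr8 (single-stranded RNA), Tlr9 (unmethylated CpG DNA) and Tlr13 (bacterial ribosomal RNA) work inside endosomes and need the chaperone Unc93b1 to get there. These receptors signal through Myd88, which brings Irak kinases and Traf6 together to activate NF-kB. In bone marrow some progenitors already carry them, and they are best known from mature monocytes, macrophages, neutrophils and dendritic cells.

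RefSeq promoter windows (GRCm38.p6) were on hand for Tlr1, Tlr2, Tlr6, Tlr8, Tlr9, Tlr13 and Myd88. They are given as sequence context, and the part of any motif in the levels was not tested. The windows printed are those that hold GAGGAA on either strand (TTCCTC on the reverse), the core bound by PU.1, a transcription factor of myeloid cells. Each is written 5′ to 3′ on the gene's own strand, upstream of the annotated start, with that core in capitals.
Tlr1 (chr5:64933564-64933808, minus strand): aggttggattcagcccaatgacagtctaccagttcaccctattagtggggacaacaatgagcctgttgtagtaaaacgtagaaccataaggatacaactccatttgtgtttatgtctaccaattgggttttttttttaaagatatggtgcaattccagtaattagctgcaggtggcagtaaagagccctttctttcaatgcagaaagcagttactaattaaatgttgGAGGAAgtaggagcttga
Tlr8 (chrX:167264330-167264579, minus strand): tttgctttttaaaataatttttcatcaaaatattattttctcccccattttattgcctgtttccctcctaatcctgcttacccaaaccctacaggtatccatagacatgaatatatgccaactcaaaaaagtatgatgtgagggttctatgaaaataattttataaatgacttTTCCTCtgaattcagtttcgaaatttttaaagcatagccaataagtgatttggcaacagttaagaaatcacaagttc
Tlr9 (chr9:106222348-106222597, plus strand): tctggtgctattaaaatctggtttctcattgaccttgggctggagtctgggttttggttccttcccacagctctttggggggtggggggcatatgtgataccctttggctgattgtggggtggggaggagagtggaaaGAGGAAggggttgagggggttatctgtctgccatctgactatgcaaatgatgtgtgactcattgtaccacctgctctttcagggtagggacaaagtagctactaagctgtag
Tlr13 (chrX:106143025-106143203, plus strand): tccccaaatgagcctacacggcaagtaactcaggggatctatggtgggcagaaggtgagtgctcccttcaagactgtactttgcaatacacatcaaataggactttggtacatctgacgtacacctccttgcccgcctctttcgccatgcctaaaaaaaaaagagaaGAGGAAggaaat
The core began 23 bases before the RefSeq start in Tlr1, 77 in Tlr8, 112 in Tlr9 and 83 in Tlr13. Of 32851 promoter windows of 250 bases, 23.3% held it. The windows of Tlr2, Tlr6 and Myd88, and a window at another start of Tlr1, held no match. A partial C/EBP site (TTGCNNAA or TTNNGCAA, in 9.56% of windows) stood in the window of Tlr8 and in 1 of the 2 windows of Tlr6. The core of the interferon-stimulated response element, also sought on both strands (in 2.98% of windows), stood in that same Tlr6 window and in the window of Myd88. No match of one motif overlapped a match of another, and binding was not measured.

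The 10 genes lie on 6 chromosomes of GRCm38. Tlr1 (chromosome 5, 64924679 to 64933563) and Tlr6 (chromosome 5, 64952031 to 64960097) are close neighbours on the minus strand. Tlr7 (167304929 to 167330558) and Tlr8 (167242696 to 167264329) lie close together on the minus strand of chromosome X. Tlr13 is also on X (106143204 to 106160493, plus strand), and Tlr9 (106222598 to 106226883, plus strand) and Myd88 (119335934 to 119341411, minus strand) are on chromosome 9. Tlr2 lies on chromosome 3 (83836272 to 83841767, minus strand), Tlr4 on chromosome 4 (66827584 to 66930284, plus strand) and Cd14 on chromosome 18 (36725074 to 36726736, minus strand). Tlr1 and Tlr6 are close copies: 13.6% of the 50-base windows of Tlr1 transcripts also stand in Tlr6 transcripts, and 12.3% of those of Tlr6 stand in Tlr1. With all other genes included, 15.4% of the Tlr1 windows stand in a transcript of another gene. Reads from such shared stretches cannot be placed with certainty, so the levels of Tlr1 and Tlr6 carry this uncertainty. No exon of the 10 overlapped another gene on the same strand, and Myd88 overlapped Acaa1a on the opposite strand, which the authors' stranded counting keeps apart.

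Libraries held 20270348 to 50303271 counts. Cdk6, the targeted gene, stood at 326, 578, 245 and 163 CPM (counts scaled to library size) in KO p210 libraries, 576, 606 and 597 CPM in WT p210, 271, 258 and 236 CPM in KO untransformed and 970.2, 999, 1213 and 1305 CPM in WT untransformed libraries. The library labelled KO p210 replicate 2 thus lay within the WT p210 libraries and against its label, so calls for KO p210 that it ends are given with and without it. WT untransformed replicate 3 also stood apart, with 1294 CPM of the mast cell protease Mcpt4 against 41.5 CPM at most in any other library. Of the markers behind the LSK name, Kit stood at 14.9 to 42.7 CPM in KO p210, 35.5 to 59.1 CPM in WT p210, 247 to 276 CPM in KO untransformed and 359.9 to 471 CPM in WT untransformed libraries. Ly6a, which encodes Sca-1, stood at 0.553 to 29.1 CPM in KO p210, 10.3 to 13.9 CPM in WT p210, 26.4 to 42.2 CPM in KO untransformed and 13.6 to 112 CPM in WT untransformed libraries.

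All 10 genes passed the filter on low counts, and their levels were compared between genes in TPM, which scale transcripts to gene length and library. Myd88 stood first in KO p210 (84.9 ± 13.5 TPM, mean ± SD, n = 4), WT p210 (80.9 ± 6.57 TPM, n = 3) and WT untransformed lines (147 ± 17.7 TPM, n = 4). In KO untransformed lines Cd14 stood first at 267 ± 78.0 TPM (n = 3), above Myd88 at 158 ± 9.27 TPM, with no overlap between their libraries. In KO p210 and WT untransformed lines the libraries of Cd14, at 67.7 ± 22.3 TPM and 88.7 ± 68.3 TPM, overlapped those of Myd88. In WT p210 lines Cd14 was second at 41.3 ± 12.7 TPM, apart from Myd88 above it and from Tlr4 below it. Among the receptors Tlr2, Tlr4 and Tlr13 were the most abundant in KO p210, WT p210 and WT untransformed lines. In KO untransformed lines Tlr2 led the receptors at 74.0 ± 21.0 TPM, before Tlr13 at 39.4 ± 18.3 TPM. There Tlr7 and Tlr8, at 25.1 ± 8.18 and 21.3 ± 7.26 TPM, stood beside Tlr4 at 21.3 ± 4.09 TPM. Tlr9 was lowest in every group, at 0.824 ± 0.545 TPM in KO p210, 0.695 ± 0.747 TPM in WT p210, 5.12 ± 1.74 TPM in KO untransformed and 0.977 ± 0.670 TPM in WT untransformed lines. Receptors next to each other in the order overlapped in their libraries, except Tlr4 above Tlr7 in KO p210, Tlr8 above Tlr1 in KO untransformed and Tlr2 above Tlr4 in WT untransformed lines.

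The surface and endosomal receptors were then summed apart in each library. The endosomal sum was 54.7, 57.8, 25.6 and 70.2 TPM in KO p210 libraries, 56.2, 15.2 and 35.6 TPM in WT p210, 86.6, 128 and 57.9 TPM in KO untransformed and 41.7, 22.2, 8.94 and 15.8 TPM in WT untransformed libraries. The surface sum was 68.2, 85.1, 27.5 and 49.3 TPM in KO p210, 51.6, 23.1 and 37.8 TPM in WT p210, 99.9, 138 and 93.7 TPM in KO untransformed and 65.3, 38.6, 30.9 and 46.9 TPM in WT untransformed libraries. Of the untransformed lines, every KO library lay above every WT library in both sums, and of the p210 lines the sums overlapped. Per unit of surface receptor transcript, KO p210 libraries held 0.802, 0.680, 0.930 and 1.42 units of endosomal transcript, and WT p210 libraries 1.09, 0.656 and 0.941. KO untransformed libraries held 0.867, 0.929 and 0.618 and WT untransformed libraries 0.638, 0.574, 0.289 and 0.336. The mean ratio was 0.959 ± 0.326 in KO p210 (SD, n = 4), 0.895 ± 0.220 in WT p210 (n = 3), 0.805 ± 0.164 in KO untransformed (n = 3) and 0.459 ± 0.172 in WT untransformed lines (n = 4). The lowest ratios were those of WT untransformed replicates 3 and 4, every p210 library lay above all WT untransformed libraries, and the KO untransformed libraries overlapped the WT untransformed ones. The split of p210 from WT untransformed libraries was narrow, between 0.656 in WT p210 replicate 2 and 0.638 in WT untransformed replicate 1, and it was not there in CPM, which are not scaled to length. In CPM the ratio was 0.570 in WT p210 replicate 2, against 0.679 and 0.587 in WT untransformed replicates 1 and 2. The ratio was not tested, since it is a score over genes chosen with earlier results known.

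**Figure D1:**
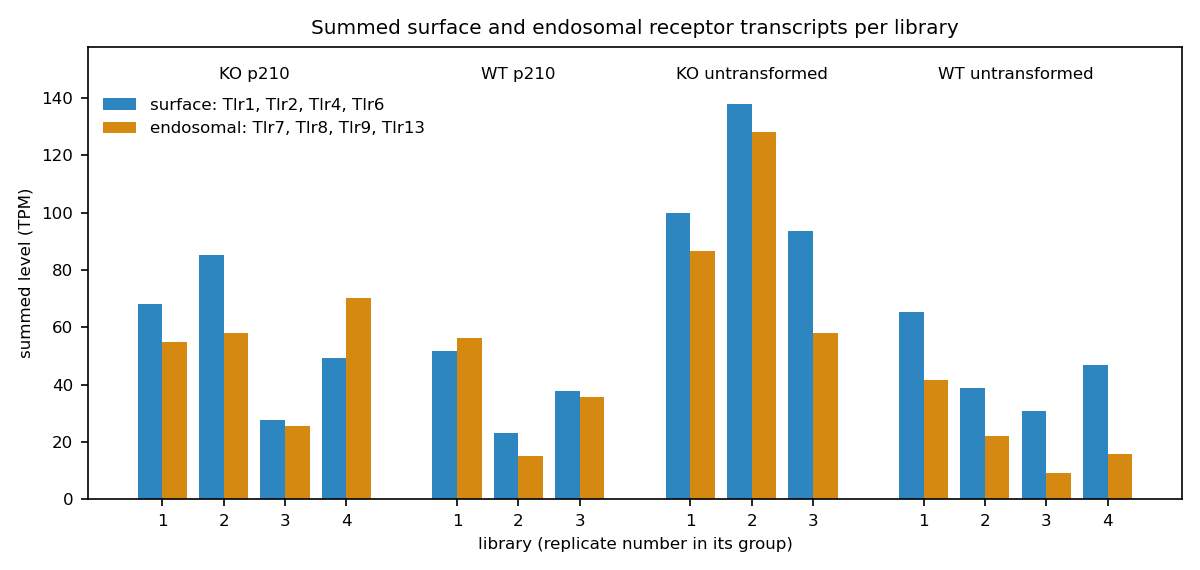
Summed TPM of the 4 surface (left bar) and of the 4 endosomal receptors (right bar) in each of the 14 libraries, by group and replicate number. The 3 KO untransformed libraries hold the highest surface sums, up to 138 TPM, and 2 of them the highest endosomal sums, while the third, at 57.9 TPM, is below KO p210 replicate 4 at 70.2 TPM. The endosomal bar is lowest in WT untransformed replicate 3, at 8.94 TPM.

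The first comparison asks what the loss of Cdk6 goes with in untransformed progenitors. All 8 receptors except Tlr6, and both Cd14 and Myd88, were higher in each KO untransformed library than in any WT untransformed library, that is 9 of the 10 genes. Over all genes tested, 20.8% showed such a split in that direction. With edgeR's quasi-likelihood test and Benjamini-Hochberg adjustment over 14512 genes, 3 of the 10 passed the threshold of 0.05 and rose (Tlr1, Tlr4 and Tlr13), beside 8.73% of all genes tested. The median log2 change was 1.89 over the 10 genes, 2.41 over the endosomal receptors and 1.35 over the surface receptors, against -0.02 over all genes tested. The difference between the classes was not tested. In these bulk libraries, fewer cells of a type and less RNA per cell cannot be told apart.

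Of the surface receptors, Tlr1, a partner of Tlr2, stood at 7.54, 13.9 and 5.09 CPM in KO untransformed libraries, against 3.32, 1.51, 0.494 and 1.63 CPM in WT untransformed libraries. The KO libraries were all above the WT libraries, and Tlr1 rose by 2.35 ± 0.63 on the log2 scale (± SE; edgeR quasi-likelihood test, adjusted p = 0.0298). Tlr4, the lipopolysaccharide receptor, stood at 34.5, 44.7 and 29.5 CPM in KO untransformed and 23.9, 18.6, 12.1 and 17.2 CPM in WT untransformed libraries. These did not overlap either, with a log2 change of 1.02 ± 0.25 (adjusted p = 0.0234). Tlr2, the lipopeptide receptor, stood at 64.1, 90.9 and 49.9 CPM in KO untransformed and 32.8, 18.6, 13.2 and 20.9 CPM in WT untransformed libraries. The groups were again apart, but the log2 change of 1.68 ± 0.55 did not pass the threshold (adjusted p = 0.0606). Tlr6, the other partner of Tlr2, stood at 2.86, 2.20 and 17.1 CPM in KO untransformed and 5.97, 1.47, 5.82 and 8.10 CPM in WT untransformed libraries. One KO library was the highest and the other two lay below 3 of the 4 WT libraries, so the log2 change of 0.48 ± 1.06 was smaller than its error (adjusted p = 0.793).

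Of the endosomal receptors, Tlr13 stood at 48.9, 73.5 and 25.8 CPM in KO untransformed libraries, against 22.9, 15.1, 4.17 and 7.13 CPM in WT untransformed libraries. The lowest KO library was only just above the highest WT library, and Tlr13 rose by 2.00 ± 0.59 (adjusted p = 0.0404). The RNA sensors stood at 28.0, 43.6 and 22.6 CPM in KO untransformed and 11.7, 3.51, 4.34 and 5.57 CPM in WT untransformed libraries for Tlr7. For Tlr8 the values were 22.0, 32.4 and 15.6 CPM in KO untransformed and 8.58, 4.02, 1.02 and 3.06 CPM in WT untransformed libraries. Both genes were apart between genotypes in every library but missed the threshold, with log2 changes of 2.33 ± 0.74 (adjusted p = 0.0522) and 2.49 ± 0.86 (adjusted p = 0.0679). Tlr9, the CpG DNA sensor, stood at 5.04, 7.61 and 3.73 CPM in KO untransformed and 1.62, 0.925, 0.0824 and 1.05 CPM in WT untransformed libraries, where the lowest value rests on 3 counts. Its groups did not overlap, and its log2 change of 2.58 ± 0.83 was the largest of the 10 but did not pass (adjusted p = 0.0550).

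Cd14 stood at 143, 159.6 and 83.8 CPM in KO untransformed libraries, against 70.7, 52.7, 7.36 and 19.9 CPM in WT untransformed libraries. The WT libraries ranged widely and all lay below the KO libraries, with a log2 change of 1.77 ± 0.59 (adjusted p = 0.0623). Myd88 stood at 119, 135 and 118 CPM in KO untransformed and 92.7, 91.0, 109 and 115 CPM in WT untransformed libraries. It was the least changed of the genes whose libraries did not overlap, at 0.28 ± 0.12 (adjusted p = 0.123). KO untransformed replicate 2 was the highest of all 14 libraries for 8 of the 10 genes, and WT untransformed replicate 3 the lowest of its group for 7.

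The 3 calls depended on single libraries. Without WT untransformed replicate 3, 0 of the 10 passed: Tlr1 had a log2 change of 2.02 (adjusted p = 0.0587), Tlr4 a log2 change of 0.84 (adjusted p = 0.0575) and Tlr13 a log2 change of 1.69 (adjusted p = 0.0830). Over the 14 fits that leave out 1 library each, Tlr1 passed in 9 (also failing without WT untransformed replicates 2 and 4 and KO untransformed replicates 1 and 2), Tlr4 in 10 (also failing without WT untransformed replicate 4 and KO untransformed replicates 1 and 2) and Tlr13 in 8 (also failing without WT untransformed replicates 2 and 4, KO untransformed replicates 1 and 2 and KO p210 replicate 2). The log2 changes stayed between 1.85 and 2.83 for Tlr1, 0.81 and 1.15 for Tlr4, and 1.58 and 2.45 for Tlr13. Within libraries of the first code (replicates 1 and 2) the changes were 2.16, 0.89 and 1.68 for Tlr1, Tlr4 and Tlr13, and within the second (replicates 3 and 4, with 1 KO library) 2.22, 0.98 and 2.16, none past the threshold.

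**Figure D2:**
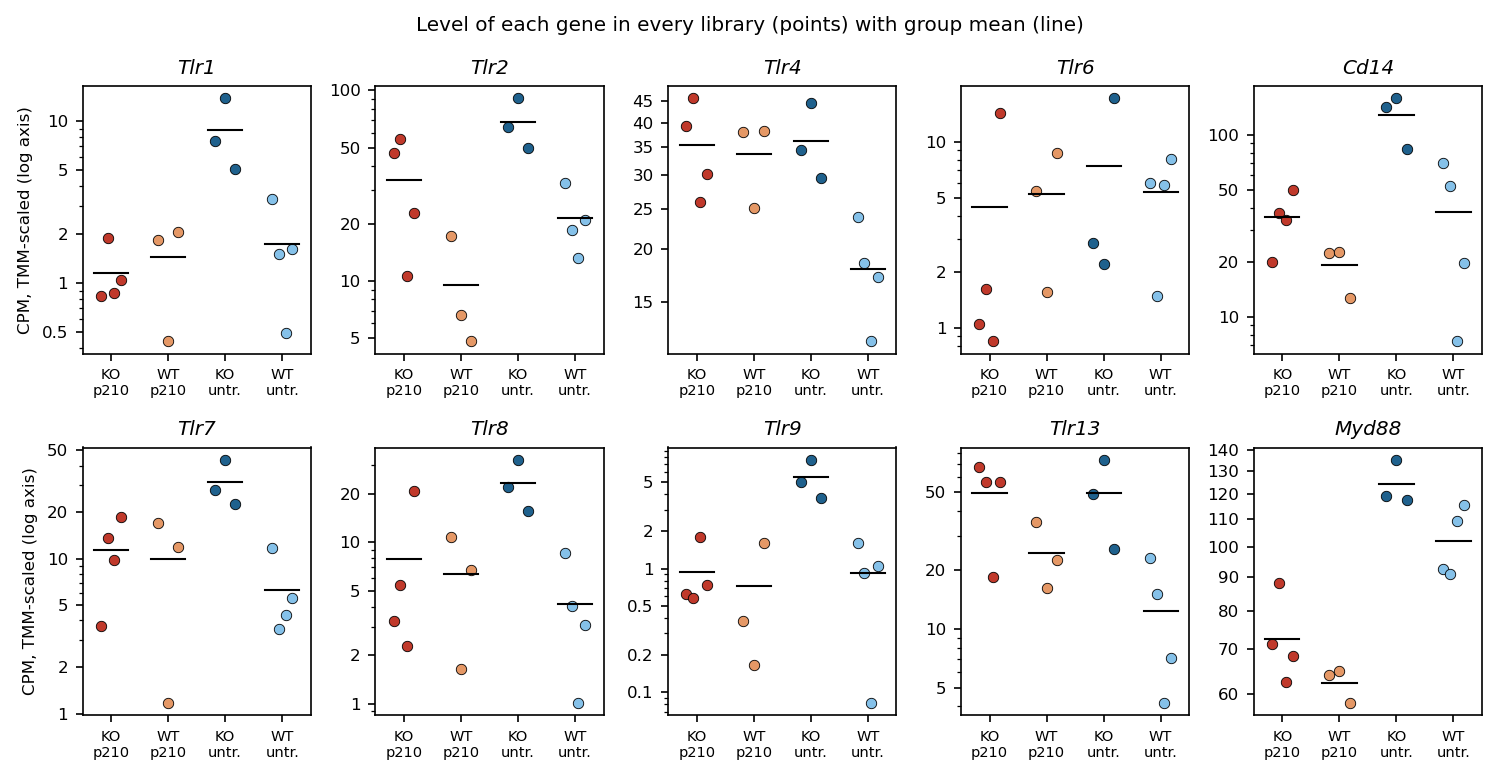
CPM of each of the 10 genes in every library (points), on a log axis, with groups from left to right KO p210, WT p210, KO untransformed and WT untransformed. Tlr4 is near 36.2 CPM in KO untransformed lines and 17.9 CPM in WT untransformed lines without overlap, while Tlr6 spreads widely within every group.

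Summed markers of monocytes and macrophages, of neutrophils and of dendritic cells were also higher in each KO untransformed library than in any WT untransformed library. The 11 monocyte and macrophage markers summed to 8809.7 to 14156 CPM in KO untransformed libraries and 331 to 3068 CPM in WT untransformed libraries, and their median log2 change was 2.05. All 11 had a positive change, and 4 rose past the threshold (Ccr2, Adgre1, Cd68 and Lyz2). Of all genes tested, 8.73% rose and 6.50% fell. The neutrophil list held Elane, Mpo, Prtn3, Ctsg, Ltf, Camp, Ngp, S100a8, S100a9, Ly6g, Mmp8, Csf3r and Cebpe. These summed to 15134 to 19640.4 CPM in KO untransformed and 120.1 to 7748 CPM in WT untransformed libraries, and 0 of 12 tested passed the threshold. Of 10 dendritic cell markers, Siglech, Ly6d and Xcr1 had no count in any library. The 10 summed to 185 to 294 CPM in KO untransformed and 52.2 to 146 CPM in WT untransformed libraries. Of the 5 tested, 4 had a positive change and 0 passed, with a median log2 change of 1.88. B cell markers reached 13.3 CPM in sum at most, with Ms4a1 at 0 throughout. Of 8 markers of stem cells and early progenitors, 1 passed the threshold, downward. Of 8 mast cell and basophil markers 1 rose, with sums of 2576 to 2868 CPM in KO untransformed and 1224 to 7235 CPM in WT untransformed libraries, and 0 of 3 tested stromal and endothelial markers passed. The part of any of these markers in the receptor results was not tested.

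Among transformed lines, 0 of the 10 genes differed between KO p210 and WT p210 (edgeR's quasi-likelihood test), where 4.44% of all genes tested passed the threshold. At an unadjusted p under 0.05 the count was 1, Tlr2, and DESeq2 also called 1, again Tlr2. None of the 10 had libraries that did not overlap, beside 13.3% of all genes tested. The median log2 change over the 10 was 0.26, with 0.37 over the endosomal and -0.08 over the surface receptors. Without the library labelled KO p210 replicate 2 the count of calls was 0. The targeted gene Cdk6 itself did not pass in this comparison (log2 change -0.86, edgeR's quasi-likelihood test, adjusted p = 0.147). Of the 14 fits that leave out 1 library, Cdk6 passed only without KO p210 replicate 2 (adjusted p = 0.0143).

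Tlr2 stood at 46.9, 55.8, 10.7 and 22.6 CPM in KO p210 libraries and 17.3, 6.62 and 4.82 CPM in WT p210 libraries. KO p210 replicate 3 lay below WT p210 replicate 1 and the other KO libraries lay above all WT libraries, with a log2 change of 1.82 ± 0.59 (adjusted p = 0.107). It passed with the description code as a covariate (1.92, adjusted p = 0.0301) and with DESeq2 (adjusted p = 0.0130), and without KO p210 replicate 2 it had a log2 change of 1.47 (adjusted p = 0.230). Tlr4 stood at 39.3, 45.8, 26.0 and 30.3 CPM in KO p210 libraries and 38.0, 25.1 and 38.2 CPM in WT p210 libraries. Its groups lay on each other, at 0.07 ± 0.26 (adjusted p = 0.923). Tlr1 stood at 0.836, 1.89, 0.873 and 1.05 CPM in KO p210 libraries and 1.85, 0.437 and 2.08 CPM in WT p210 libraries, and Tlr6 at 1.05, 1.62, 0.844 and 14.2 CPM in KO p210 libraries and 5.40, 1.55 and 8.68 CPM in WT p210 libraries. Both were low and overlapping, at -0.32 ± 0.64 (adjusted p = 0.839) and -0.23 ± 1.07 (adjusted p = 0.937).

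Of the endosomal receptors, Tlr13 stood at 67.8, 56.6, 18.5 and 56.3 CPM in KO p210 libraries and 35.1, 16.2 and 22.4 CPM in WT p210 libraries. The highest 3 values were KO libraries, yet KO p210 replicate 3 lay among the WT libraries, and the log2 change was 1.02 ± 0.60 (adjusted p = 0.374). Tlr7 stood at 3.66, 13.6, 9.84 and 18.7 CPM in KO p210 libraries and 17.0, 1.18 and 12.0 CPM in WT p210 libraries, and Tlr8 at 3.24, 5.44, 2.30 and 20.6 CPM in KO p210 libraries and 10.8, 1.65 and 6.70 CPM in WT p210 libraries. In both genes WT p210 replicate 2 was lowest and KO p210 replicate 4 highest, with log2 changes of 0.19 ± 0.73 (adjusted p = 0.921) and 0.31 ± 0.85 (adjusted p = 0.889). Tlr9 stood at 0.627, 0.579, 1.80 and 0.741 CPM in KO p210 libraries and 0.377, 0.168 and 1.62 CPM in WT p210 libraries, which rest on 5 to 62 counts per library. The change of 0.43 ± 0.86 was smaller than its error (adjusted p = 0.835). Cd14 stood at 20.2, 37.5, 34.1 and 49.9 CPM in KO p210 libraries and 22.5, 22.9 and 12.7 CPM in WT p210 libraries, and Myd88 at 71.3, 88.0, 62.5 and 68.4 CPM in KO p210 libraries and 63.9, 64.9 and 58.1 CPM in WT p210 libraries. Their groups overlapped, with log2 changes of 0.87 ± 0.61 (adjusted p = 0.471) and 0.22 ± 0.12 (adjusted p = 0.339). The monocyte and macrophage markers summed to 4962 to 10076 CPM in KO p210 and 2772 to 4888 CPM in WT p210 libraries with 0 of 11 past the threshold, and the neutrophil markers to 2021 to 14911 CPM in KO p210 and 1023 to 4061 CPM in WT p210 libraries with 0 of 12 past it.

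Whether the genotype difference itself changed with transformation was tested as an interaction, (KO p210 minus WT p210) minus (KO untransformed minus WT untransformed). With edgeR's quasi-likelihood test 0 of the 10 passed, beside 0.0345% of all genes tested, and DESeq2 called 0 of the 10. At an unadjusted p under 0.05 there were 2. Tlr1 had an interaction of -2.67 ± 0.89 (adjusted p = 0.264) and Tlr4 one of -0.95 ± 0.36 (adjusted p = 0.293). The interaction of Tlr2 was 0.14 ± 0.79 (adjusted p = 0.956), that of Tlr13 -0.99 ± 0.82 (adjusted p = 0.608) and that of Myd88 -0.06 ± 0.17 (adjusted p = 0.888). The other 5 lay between -2.19 and -0.70, with adjusted p of at least 0.368. A difference found in the untransformed and not in the p210 lines was therefore not shown to depend on transformation.

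**Figure D3:**
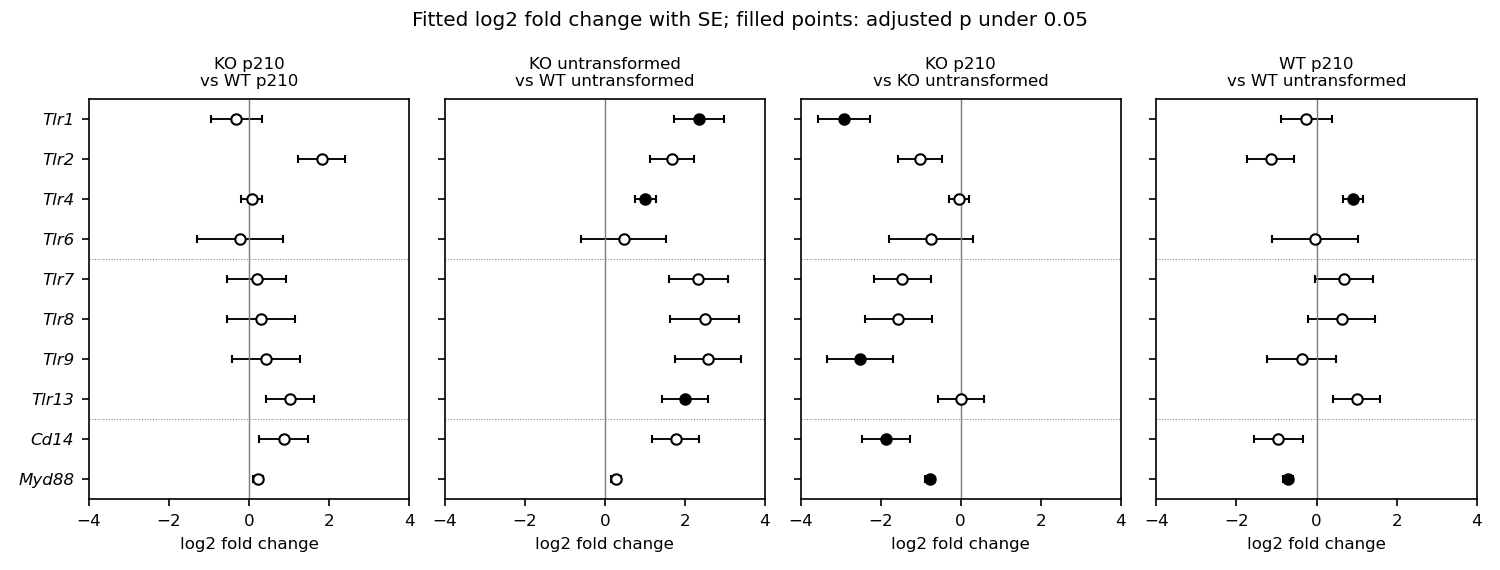
Log2 changes with standard errors of the 10 genes in the 2 genotype comparisons and the 2 comparisons of p210 with untransformed lines (edgeR). In KO untransformed against WT untransformed lines all 10 changes are above 0, up to 2.58 for Tlr9, and in KO p210 against KO untransformed lines the 4 filled points (adjusted p under 0.05) lie below 0.

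The next comparisons ask how the genes differed once p210 was present. In the wild type, Tlr4 rose and Myd88 fell in WT p210 against WT untransformed lines, so that 1 gene passed upward and 1 downward. Over all genes tested 21.9% passed upward and 17.6% downward, so neither count exceeds the share over all genes. Tlr4 stood at 38.0, 25.1 and 38.2 CPM in WT p210 and 23.9, 18.6, 12.1 and 17.2 CPM in WT untransformed libraries. The groups did not overlap, with a log2 change of 0.91 ± 0.25 (edgeR, adjusted p = 0.0142), which missed the threshold without WT p210 replicate 3 (0.81, adjusted p = 0.0532). Myd88 stood at 63.9, 64.9 and 58.1 CPM in WT p210 and 92.7, 91.0, 109 and 115 CPM in WT untransformed libraries. All WT p210 libraries were lower, at -0.71 ± 0.12 (adjusted p = 0.000800), and this passed in all 14 fits that leave out 1 library.

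The other 8 genes did not pass in the wild type. Tlr2 had a log2 change of -1.15 ± 0.58 (adjusted p = 0.134). Compared within lines, which pairs each WT p210 library with the untransformed library of its line, Tlr2 did pass (-1.28, adjusted p = 0.00829). Cd14 had a log2 change of -0.95 ± 0.61 (adjusted p = 0.234) and Tlr13 one of 1.00 ± 0.58 (adjusted p = 0.192). Of the 14 fits that leave out 1 library, Cd14 passed in 1, that without WT untransformed replicate 3 (-1.30, adjusted p = 0.0469). It also passed in the first code alone (-1.45, adjusted p = 0.0195). In the second code alone its change was -0.12, and within lines it did not pass (-0.74, adjusted p = 0.391). Tlr7, Tlr8, Tlr1, Tlr6 and Tlr9 lay between -0.37 and 0.68. Of the 11 monocyte and macrophage markers 3 rose in WT p210 lines (Ccr2, Adgre1 and Cd68), beside 21.9% of all genes tested. The 11 summed to 2772 to 4888 CPM in WT p210 and 331 to 3068 CPM in WT untransformed libraries. Of 8 mast cell and basophil markers 2 rose and 3 fell, and of 8 stem and early progenitor markers 1 rose and 2 fell. Of 12 neutrophil markers 1 rose and 2 fell, where 17.6% of all genes tested fell. The part of these markers was not tested.

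In the knockout, 4 of the 10 fell in KO p210 against KO untransformed lines (Tlr1, Tlr9, Cd14 and Myd88) and 0 rose. Of all genes tested, 18.0% fell. These 4 and Tlr7 were lower in every KO p210 library than in any KO untransformed library, a split shown by 23.5% of all genes tested. Tlr1 stood at 0.836, 1.89, 0.873 and 1.05 CPM in KO p210 and 7.54, 13.9 and 5.09 CPM in KO untransformed libraries, and fell by 2.92 ± 0.65 on the log2 scale (edgeR, adjusted p = 0.00451). Tlr9 stood at 0.627, 0.579, 1.80 and 0.741 CPM in KO p210 and 5.04, 7.61 and 3.73 CPM in KO untransformed libraries, a log2 change of -2.52 ± 0.83 (adjusted p = 0.0319). For both receptors the KO p210 libraries overlapped the WT p210 libraries. Cd14 stood at 20.2, 37.5, 34.1 and 49.9 CPM in KO p210 and 143, 159.6 and 83.8 CPM in KO untransformed libraries, a log2 change of -1.86 ± 0.59 (adjusted p = 0.0280). Myd88 stood at 71.3, 88.0, 62.5 and 68.4 CPM in KO p210 and 119, 135 and 118 CPM in KO untransformed libraries, a log2 change of -0.78 ± 0.12 (adjusted p = 0.000502).

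Without the library labelled KO p210 replicate 2, Tlr1 had a log2 change of -3.26 (adjusted p = 0.00659) and Myd88 a log2 change of -0.88 (adjusted p = 0.000260). Tlr9 and Cd14 then missed the threshold, at -2.35 (adjusted p = 0.0761) and -1.89 (adjusted p = 0.0543). Each of these 2 also missed it without 4 other single libraries, KO untransformed replicates 1 and 2 and KO p210 replicates 1 and 4 for Tlr9, and KO untransformed replicates 1 and 2 and KO p210 replicates 1 and 3 for Cd14. Within lines, Tlr1 (-2.77, adjusted p = 0.0414) and Myd88 (-0.72, adjusted p = 0.00871) passed. Tlr9 (-3.01, adjusted p = 0.117) and Cd14 (-1.89, adjusted p = 0.0664) did not pass within lines, with changes no smaller than in the unpaired fit. Tlr2 did pass within lines (-0.76, adjusted p = 0.0271), although it had not in the unpaired fit (-1.01 ± 0.55, adjusted p = 0.172). The within-line fit includes the library labelled KO p210 replicate 2 and was not run without it. Tlr7 had a log2 change of -1.45 ± 0.72 (adjusted p = 0.135) and Tlr8 one of -1.56 ± 0.84 (adjusted p = 0.164). Tlr4, Tlr6 and Tlr13 had -0.04 ± 0.26, -0.74 ± 1.06 and 0.01 ± 0.58, each within or near its error. Of the 11 monocyte and macrophage markers Csf1r and Klf4 fell, beside 18.0% of all genes tested. Their median log2 change was -1.37, and 1 of the 11 had a positive change. The 11 summed to 4962 to 10076 CPM in KO p210 and 8809.7 to 14156 CPM in KO untransformed libraries. Mast cell and basophil markers summed to 6942 to 10160 CPM in KO p210 and 2576 to 2868 CPM in KO untransformed libraries, with 2 of 8 rising. Of 8 stem and early progenitor markers 1 rose and 4 fell, and of 12 neutrophil markers 2 fell. The part of these markers was not tested. Both comparisons of p210 with untransformed lines share libraries with the genotype comparisons, so their values are not independent of those.

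The 6 lines read in both states show the same genes pair by pair, as a description. The KO line with the first code and letter B includes the library labelled KO p210 replicate 2, whose Cdk6 level went against its label. Myd88 was lower with p210 in 6 of 6 lines and Tlr2 was lower in 6 of 6. Tlr4 was higher with p210 in the WT lines, by 0.67, 0.44 and 1.66 on the log2 scale, whereas in the KO lines the differences were 0.19, 0.0353 and 0.0368, the last 2 of them 45.8 CPM with p210 against 44.7 CPM without and 30.3 CPM with p210 against 29.5 CPM without. In the KO line with the first code and letter A, Tlr2 stood at 46.9 CPM with p210 and 64.1 CPM without, and in its letter B line at 55.8 CPM with p210 and 90.9 CPM without. In the WT lines of the same code it stood at 17.3 CPM with p210 and 32.8 CPM without in A and at 6.62 CPM with p210 and 18.6 CPM without in B. Tlr13 was higher with p210 in 5 lines and lower in 1.

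**Figure D4:**
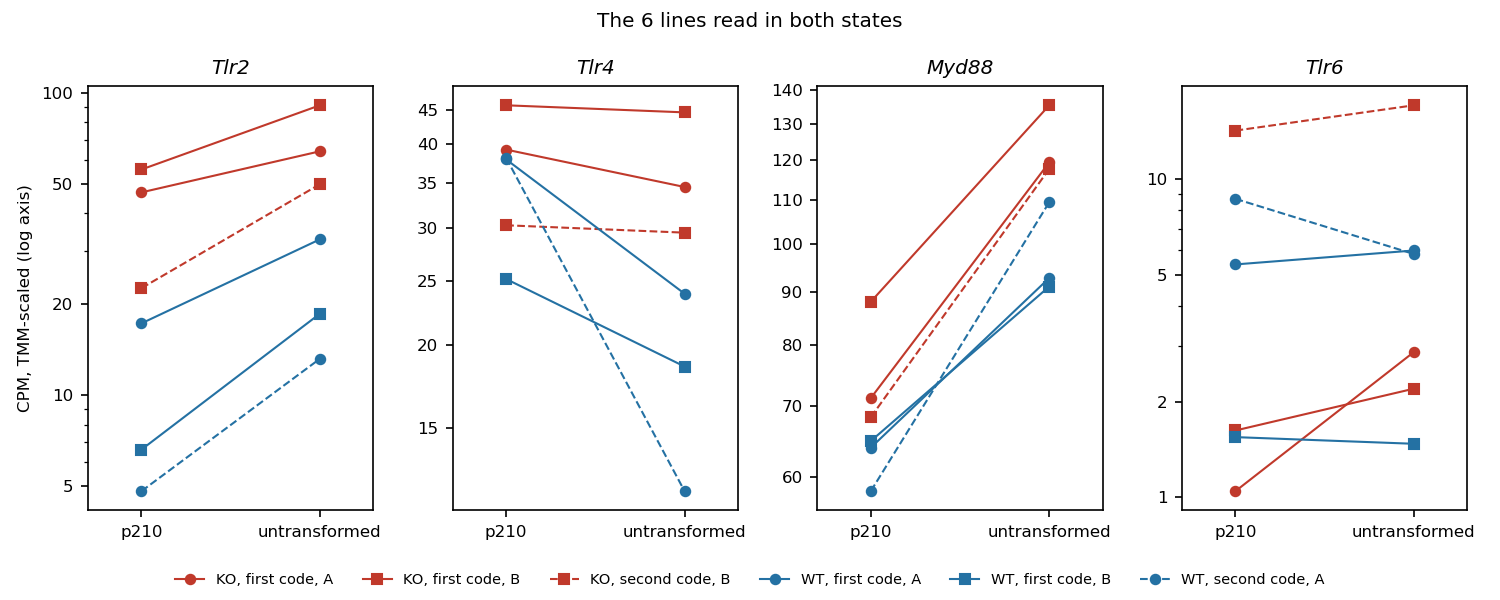
CPM of Tlr2, Tlr4, Myd88 and Tlr6 on a log axis in the 6 lines measured both with p210 (left) and untransformed (right), with each line's 2 states joined. Tlr2 and Myd88 are lower with p210 in all 6 lines, Tlr4 is higher with p210 in the 3 WT lines and nearly level in the KO lines, and for Tlr6 the lines stand 3.77 apart on the log2 scale with p210.

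Tlr6 spread widely within every group, and its levels are therefore given by line. It stood at 1.05 CPM with p210 and 2.86 CPM without in the KO first-code line A, at 1.62 CPM with p210 and 2.20 CPM without in KO first-code line B and at 14.2 CPM with p210 and 17.1 CPM without in KO second-code line B. In the WT lines it stood at 5.40 CPM with p210 and 5.97 CPM without in first-code line A, at 1.55 CPM with p210 and 1.47 CPM without in first-code line B and at 8.68 CPM with p210 and 5.82 CPM without in second-code line A. The highest line in one state was also the highest in the other, and KO second-code line B was higher than the others throughout. The absolute log2 difference between the 2 states of a line had a median of 0.35 (range 0.07 to 1.45), whereas lines spanned 3.77 on the log2 scale with p210 and 3.54 untransformed. Its neighbour Tlr1 had a within-line median of 2.17, while Tlr4 had 0.31, Tlr13 0.54 and Myd88 0.68. Tlr2, Tlr7, Tlr8, Tlr9 and Cd14 had medians of 1.03 to 2.73. A median difference and a span are different measures, and wide spans were not particular to Tlr6. Untransformed, Tlr9 spanned 6.53, Tlr1 4.82, Cd14 4.44, Tlr13 4.14 and Tlr7 3.64. Tlr8 also spanned more than Tlr6 there, and Tlr2, Tlr4 and Myd88 spanned less. With p210, Tlr7 spanned 3.99 and the other members less than Tlr6. These spans are descriptions over 6 lines and were not tested.

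The rest of the pathway was taken from lists chosen by role. Of all genes tested, 8.73% rose and 6.50% fell in KO untransformed against WT untransformed lines. Values in brackets are log2 changes ± SE, and levels are mean ± SD over the 3 or 4 libraries of a group. Of 14 tested genes for receptor trafficking and co-receptors 3 rose in KO lines and 0 fell. Unc93b1, the chaperone of the endosomal receptors, had 286 ± 65.0 CPM in KO untransformed against 64.2 ± 43.4 CPM in WT untransformed lines, log2 change 2.16 ± 0.52, adjusted p = 0.0210. Cnpy3, another receptor chaperone, had 157 ± 9.25 CPM in KO untransformed against 96.6 ± 13.2 CPM in WT untransformed lines, log2 change 0.70 ± 0.12, adjusted p = 0.00763, and Ap3b1, an adaptor subunit of endosomal sorting, had a log2 change of 0.32 ± 0.07 (adjusted p = 0.0187). Of 25 adaptors, kinases and ubiquitin enzymes of Toll-like receptor signalling, on the Myd88 branch and on the Ticam1 branch to interferon, 6 rose and 0 fell, led by Irak2 (1.20 ± 0.20, adjusted p = 0.00656), Irak4 (0.56 ± 0.10, adjusted p = 0.00710) and the interferon-branch kinase gene Ikbke (1.56 ± 0.29, adjusted p = 0.00849). Of 16 negative regulators 3 rose and 1 fell: those named by rule are the inhibitory receptor gene Pirb (148 ± 43.0 CPM in KO untransformed against 26.7 ± 17.0 CPM in WT untransformed lines, log2 change 2.47 ± 0.44, adjusted p = 0.00764), the adaptor Dok3 (1.60 ± 0.36, adjusted p = 0.0156) and the phosphatase Ptpn6 (0.57 ± 0.13, adjusted p = 0.0171). Of 5 interferon regulatory factors 1 rose, Irf5 (1.66 ± 0.43, adjusted p = 0.0259), and of 6 genes of the IL-1 receptor family, which share Myd88, 1 rose, Il18rap (1.15 ± 0.31, adjusted p = 0.0310). Of 12 other pattern recognition receptors 3 rose in KO untransformed against WT untransformed lines, the lectin receptor Clec4d (1.61 ± 0.44, adjusted p = 0.0330) and the peptidoglycan sensors Nod1 (1.68 ± 0.49, adjusted p = 0.0404) and Nod2 (1.92 ± 0.58, adjusted p = 0.0439). Of 19 target genes of the pathway 1 rose, the IL-1 receptor antagonist Il1rn (2.69 ± 0.82, adjusted p = 0.0473). Of the other Toll-like receptors 0 of 3 tested passed, and Tlr11 had no count in any library, which allows at most 0.0596 to 0.148 CPM per library by counting error. Most of these pathway calls rested on single libraries: of the 15 genes named for this comparison, Irak2 passed in every fit that leaves out 1 library, and no gene changed sign. Without KO untransformed replicate 2 the other 14 missed the threshold (adjusted p 0.0521 to 0.163). Without WT untransformed replicate 3, Il18rap (0.94, adjusted p = 0.070), Il1rn (2.38, adjusted p = 0.109), Irf5 (1.39, adjusted p = 0.0523), Nod1 (1.34, adjusted p = 0.0504), Clec4d (1.42, adjusted p = 0.0841), Nod2 (1.61, adjusted p = 0.0925) and Ap3b1 (0.27, adjusted p = 0.0617) missed it. Without KO untransformed replicate 1 these 7, Ptpn6 and Unc93b1 missed it (adjusted p 0.0534 to 0.129). Without WT untransformed replicate 4 it was missed by Il1rn, Irf5, Nod1, Clec4d, Nod2, Ap3b1 and Unc93b1 (adjusted p 0.0614 to 0.111). Without KO untransformed replicate 3, Il18rap, Il1rn, Nod1 and Ap3b1 missed it (adjusted p 0.0652 to 0.0710), and without WT untransformed replicate 2, Il18rap, Clec4d and Nod2 (adjusted p 0.0634 to 0.0696). Leaving out a p210 library, which alters the shared estimate of spread, ended the calls of Il1rn (adjusted p = 0.0607), Nod1 (adjusted p = 0.0511) and Nod2 (adjusted p = 0.0577) for KO p210 replicate 2. It also ended that of Il1rn for KO p210 replicates 1 and 4 (adjusted p = 0.0558 and 0.0513) and that of Nod2 for WT p210 replicates 1 and 2 (adjusted p = 0.0532 and 0.0512). Il1rn also missed it without WT untransformed replicate 1 (adjusted p = 0.0584). Without WT untransformed replicate 3, 4 of the 25 adaptors and kinases and 0 of the 12 other pattern recognition receptors rose, and without KO p210 replicate 2 these counts were 4 and 1.

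Among p210 lines 0.882% of all genes tested rose and 3.56% fell. Of 19 target genes 1 rose, and of 16 negative regulators 1 fell. Of 3 other Toll-like receptors, 14 trafficking and co-receptor genes and 25 adaptors and kinases 0 passed. The same held for 5 interferon regulatory factors, 6 genes of the IL-1 receptor family and 12 other pattern recognition receptors. The inhibitor of NF-kB Nfkbia rose (137 ± 78.7 CPM in KO p210 against 42.8 ± 3.12 CPM in WT p210 lines, log2 change 1.68 ± 0.37, adjusted p = 0.0261). The negative regulator Nlrc3 fell (17.8 ± 6.89 CPM in KO p210 against 54.8 ± 4.87 CPM in WT p210 lines, log2 change -1.62 ± 0.27, adjusted p = 0.00778). Nlrc3 passed in every fit that leaves out 1 library. Nfkbia missed the threshold without the library labelled KO p210 replicate 2 (1.44, adjusted p = 0.0676), and also without WT p210 replicate 1 (adjusted p = 0.0894), replicate 2 (adjusted p = 0.0568) or replicate 3 (adjusted p = 0.0687).

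With p210, the adaptor and kinase list moved both ways in each genotype. Of 25 tested, 7 rose and 3 fell in WT p210 against WT untransformed lines, where 21.9% of all genes tested rose and 17.6% fell. In KO p210 against KO untransformed lines 7 rose and 5 fell, where 19.2% of all genes tested rose and 18.0% fell. Traf6, the ubiquitin ligase downstream of Myd88, fell by 0.66 ± 0.10 in the knockout (adjusted p = 0.000349) and by 0.92 ± 0.10 in the wild type (adjusted p = 4.97e-05). The kinase Tbk1 rose by 0.60 ± 0.08 in the knockout (adjusted p = 0.000171) and 0.66 ± 0.07 in the wild type (adjusted p = 6.75e-05). Ticam2, the bridging adaptor of Tlr4, fell in the knockout (1.64 ± 0.219 CPM in KO p210 against 7.43 ± 2.32 CPM in KO untransformed lines, log2 change -2.17 ± 0.38, adjusted p = 0.00120), and Irak2 rose in the wild type (1.41 ± 0.20, adjusted p = 0.000273). Of the IL-1 receptor family 3 of 6 rose in each genotype, with 1 falling in the wild type. Il18r1 had 201 ± 19.8 CPM in KO p210 against 5.23 ± 0.964 CPM in KO untransformed lines, log2 change 5.27 ± 0.60, adjusted p = 9.47e-05, and in the wild type 182 ± 70.8 CPM in WT p210 against 2.61 ± 1.63 CPM in WT untransformed lines, log2 change 6.15 ± 0.56, adjusted p = 2.25e-05. Its partner Il18rap rose by 2.36 ± 0.34 in the knockout (adjusted p = 0.000364) and 3.53 ± 0.33 in the wild type (adjusted p = 2.50e-05). Il1r2, a decoy receptor, rose in the knockout (3.21 ± 1.10, adjusted p = 0.0382), and Il1rap fell in the wild type (-1.09 ± 0.18, adjusted p = 0.000800). The call of Il1r2 was lost without the library labelled KO p210 replicate 2 (2.51, adjusted p = 0.0934), and also without KO p210 replicate 4 or any 1 of the 3 KO untransformed libraries (highest adjusted p = 0.122).

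Of 19 target genes, 7 rose and 4 fell in KO p210 against KO untransformed lines, and 5 rose and 4 fell in WT p210 against WT untransformed lines. Of all genes tested, 19.2% rose and 18.0% fell in the knockout, and 21.9% rose and 17.6% fell in the wild type. The cytokine gene Il6 rose by 3.57 ± 0.74 in the knockout (adjusted p = 0.00322) and 3.60 ± 0.68 in the wild type (adjusted p = 0.00158). Socs3, a feedback inhibitor of cytokine signalling, fell in the knockout (-1.89 ± 0.20, adjusted p = 6.75e-05), and Il1rn rose in the wild type (3.48 ± 0.84, adjusted p = 0.00689). Il10 was lower with p210 in both (adjusted p = 0.00552 in the knockout and 0.00410 in the wild type), at 0.0422 ± 0.0553 CPM in KO p210 and 0.649 ± 0.369 CPM in KO untransformed lines, and at 0.0169 ± 0.0293 CPM in WT p210 and 0.517 ± 0.218 CPM in WT untransformed lines. Of 16 negative regulators 2 rose in the knockout and 5 in the wild type, among them the inhibitory receptor gene Lilrb4a and the deubiquitinase gene Otud7b. Lilrb4a rose by 3.72 ± 0.53 in the knockout (adjusted p = 0.000352) and 4.45 ± 0.50 in the wild type (adjusted p = 7.30e-05), and Otud7b by 0.84 ± 0.14 in the knockout (adjusted p = 0.000880) and 0.69 ± 0.14 in the wild type (adjusted p = 0.00204). Dok3 rose in the wild type (1.85 ± 0.36, adjusted p = 0.00190). Of 5 interferon regulatory factors, Irf3 rose by 0.54 ± 0.07 in the knockout (adjusted p = 0.000225) and 0.53 ± 0.07 in the wild type (adjusted p = 0.000195), and Irf8 (-2.81 ± 0.90, adjusted p = 0.0295) and Irf7 (-1.27 ± 0.42, adjusted p = 0.0316) fell in the knockout. Both missed the threshold without the library labelled KO p210 replicate 2, Irf8 at -2.56 (adjusted p = 0.0706) and Irf7 at -1.29 (adjusted p = 0.0567). They also missed it without KO untransformed replicate 1 or 2 or KO p210 replicate 3, Irf8 without KO p210 replicate 1 and Irf7 without KO p210 replicate 4 (highest adjusted p = 0.0861 for Irf8 and 0.110 for Irf7). Without KO p210 replicate 2, 3 of the 19 target genes rose and 4 fell. The rise of Il1rn in the wild type missed the threshold without WT p210 replicate 1 (adjusted p = 0.0505).

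Of 14 trafficking and co-receptor genes 3 fell in KO p210 against KO untransformed lines, Ap3b1 (-0.39 ± 0.07, adjusted p = 0.00198), Tmed7 (-0.30 ± 0.10, adjusted p = 0.0403) and the protease gene Lgmn (-2.83 ± 1.01, adjusted p = 0.0455). Of all genes tested, 18.0% fell there, and 21.9% rose and 17.6% fell in WT p210 against WT untransformed lines. Lgmn passed in only 4 of the 14 fits that leave out 1 library, missing the threshold without the library labelled KO p210 replicate 2 (-2.55, adjusted p = 0.101), KO p210 replicate 1 or 3, any KO untransformed library, WT p210 replicate 3 or WT untransformed replicate 1, 2 or 4 (highest adjusted p = 0.112). Tmed7 passed in 8 of these fits, missing it without KO p210 replicate 1 or 4, KO untransformed replicate 2 or 3, WT p210 replicate 2 or WT untransformed replicate 4 (highest adjusted p = 0.132). In WT p210 against WT untransformed lines Ly96, the partner of Tlr4, rose with it (0.66 ± 0.22, adjusted p = 0.0325) and Ap3b1 fell (-0.30 ± 0.08, adjusted p = 0.00819). Of 12 other pattern recognition receptors, the lectin receptor Clec4e rose by 1.55 ± 0.34 in the knockout (adjusted p = 0.00460) and 1.92 ± 0.33 in the wild type (adjusted p = 0.000895), and the RNA sensor Ifih1 fell, with -1.45 ± 0.23 in the knockout (adjusted p = 0.000568) and -1.04 ± 0.23 in the wild type (adjusted p = 0.00417). Clec4d rose in the wild type (1.54 ± 0.44, adjusted p = 0.0169). Of the other Toll-like receptors, Tlr12 rose in the wild type (1.75 ± 0.54, adjusted p = 0.0237). Ly96 and Tlr12 missed the threshold without WT untransformed replicate 3 (0.56, adjusted p = 0.0840, and 1.48, adjusted p = 0.0516), WT untransformed replicate 4 or WT p210 replicate 3 (highest adjusted p = 0.198 for Ly96 and 0.0770 for Tlr12), and Clec4d missed it without WT p210 replicate 2 (adjusted p = 0.0709). Tlr5, the flagellin receptor, was lower in KO p210 than KO untransformed lines (adjusted p = 0.00226), at 0.0131 ± 0.0261 CPM in KO p210, which is 1 count in the group, and 0.463 ± 0.0718 CPM in KO untransformed lines.

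For each member the 3 genes with the most similar profile were named by Pearson correlation of log2 CPM over the 14 libraries among 11250 genes, as a description. Libraries of one group and line share their state, so no p is given. For the surface receptors they were D1Ertd622e (r = 0.945), Rasa4 (r = 0.944) and Il18 (r = 0.939) for Tlr1, Arhgap39 (r = 0.939), Clta (r = 0.936) and Stard8 (r = 0.911) for Tlr2, Ctns (r = 0.950), Mfsd12 (r = 0.942) and Tmem206 (r = 0.941) for Tlr4 and Zfp799 (r = 0.855), Manea (r = 0.770) and Zfp939 (r = 0.745) for Tlr6. For the endosomal receptors they were P2ry6 (r = 0.933), Ifi207 (r = 0.915) and Stard5 (r = 0.910) for Tlr7, Pde8a (r = 0.974), Slc37a2 (r = 0.973) and Camsap2 (r = 0.948) for Tlr8, Mpnd (r = 0.926), Il18 (r = 0.916) and Rere (r = 0.914) for Tlr9 and Mppe1 (r = 0.965), Cd80 (r = 0.959) and Tmem206 (r = 0.956) for Tlr13. For Cd14 they were Paox (r = 0.960), Lbp (r = 0.942) and Echs1 (r = 0.941), and for Myd88 Elmod3 (r = 0.953), Armc7 (r = 0.951) and Mib1 (r = 0.949). Il18 was among the 3 of both Tlr1 and Tlr9, and Tmem206 among those of both Tlr4 and Tlr13. Among the members, the closest pairs were Tlr4 with Tlr13 (r = 0.912), Tlr1 with Tlr9 (r = 0.878) and Tlr7 with Tlr8 (r = 0.864). Each of these pairs but Tlr7 with Tlr8 joins a surface and an endosomal receptor.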

How the data were processed

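Total RNA from HPC-LSK cultures was extracted with a QIAGEN RNeasy kit and sequenced as 50-base single-end reads with the SENSE mRNA-Seq kit, per the labels' protocols. The authors trimmed with Trimmomatic and aligned with STAR, per the submitters' processing notes, in versions not given in the sources used here. Read counts per gene were made by the authors with featureCounts 1.5.1 on GENCODE M13 (GRCm38) exons with reverse-strand counting, per the file headers, which show no option for counting multi-mapping or overlapping reads. The deposited TPM values matched those recomputed from the deposited counts and gene lengths to within 0.05.

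The 10 members and all gene and marker lists were chosen with earlier results of these data known. Counts of all 14 libraries were fitted together in edgeR 4.0.16 (R 4.3.3) with 4 group means, TMM scaling, filterByExpr at a minimum count of 10 and a total of 15 (14512 genes kept), the robust quasi-likelihood F-test and Benjamini-Hochberg adjustment over all of them, at a threshold of 0.05. CPM are TMM-scaled. The test was also run on simulated independent libraries, for KO untransformed against WT untransformed lines. Changes were placed only in genes above a set mean level, so it covers neither low genes such as Tlr9 nor shared lines. Its outcome is not used here. Named genes are all members, Cdk6, up to 3 called genes of each pathway list with the smallest adjusted p, and the 3 genes nearest to each member by correlation; 2 listed symbols were unmatched. Lines pair the 2 states of a genotype. The 3 same-line WT pairs deviated together (r = 0.163, 0.114 and 0.123 across genes), the KO pairs less so (r = 0.0620, 0.0800 and 0.0207). Pairs of different lines across states reached 0.0751 in the WT and 0.0693 in the KO, the latter above 0.0620 and 0.0207. Between genotypes, pairs reached 0.265 (WT untransformed replicate 1 with KO untransformed replicate 2) and 0.255 (WT p210 replicate 3 with KO p210 replicate 1). These r do not settle whether code and letter name lines. Alternatives were other scalings and filters, DESeq2 1.42.0, limma-voom 3.58.1, replicate and line blocks, the description code, a second sequencing run (6 libraries) and leaving out libraries. Promoter windows came from RefSeq and near-copies from GENCODE M21 transcripts. Intervals and floors (3 counts) cover counting error only.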

Additional observations from a re-analysis of the deposited data

Results flagged for a closer look

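A single library stood far from the rest of its group in 2 of the 20 groups of 4 libraries examined (10 genes in KO p210 and in WT untransformed lines). The cut-off marks about 1 in 20 groups by chance where values are normal and groups independent. CPM need not be normal and the same libraries served all 10 genes, so the 2 cannot be set against that rate. For Tlr6, KO p210 replicate 4 had 14.2 CPM, against 0.844, 1.05 and 1.62 CPM in the other KO p210 libraries, so that the gap took 0.942 of the whole range. The KO untransformed library of the same line, replicate 3, was also the highest of its group for Tlr6, at 17.1 CPM. For Tlr9, KO p210 replicate 3 had 1.80 CPM, against 0.579, 0.627 and 0.741 CPM in the others, a gap of 0.868 of the range, and its line has no untransformed library here.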

How the results depend on the processing

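Directions held in every setting for each member past the threshold in the report. Of the 10 genes, 3 passed in KO untransformed against WT untransformed lines. Leaving out 1 library gave 0 to 8, the code as a covariate 5, a stricter filter 5, only these 2 groups in the fit 6, DESeq2 8 and limma-voom 8. The second run as a covariate, either code alone, and leaving out both WT untransformed replicate 3 and KO p210 replicate 2 gave 0 each. In KO p210 against WT p210 lines the code covariate and DESeq2 gave 1 each, against 0. In WT p210 against WT untransformed lines (2) leaving out 1 library gave 1 to 3, and the second-run covariate and the second code alone 1 each. In KO p210 against KO untransformed lines (4) these were 2 to 5 on leaving out 1 library, 2 with the replicate block and 0 in the second code alone. With the replicate number as a block, the genotype comparisons gave 4 in untransformed and 0 in p210 lines, and the interaction 0; there the same number stands for different lines. Where a setting leaves 1 library in a group, that library is assumed to vary like the others. Over all genes, calls ran from 0 (second code) to 3499 (DESeq2) around 2211 in KO untransformed against WT untransformed, 4 to 1454 around 645 in KO p210 against WT p210, 1566 to 6381 around 5727 in WT p210 against WT untransformed, 73 to 6124 around 5395 in KO p210 against KO untransformed lines, and 0 to 409 around 5 for the interaction.

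Signs changed in 17 of the 50 member comparisons, none called in either setting, and the cause was not tested. Leaving out 1 library gave log2 ranges of -1.11 to 0.88 for Tlr6 in KO untransformed against WT untransformed lines. In KO p210 against WT p210 they were -0.75 to 0.0114 for Tlr1, -0.11 to 0.19 for Tlr4, -2.15 to 0.34 for Tlr6, -0.34 to 0.80 for Tlr7, -0.81 to 0.92 for Tlr8 and -0.11 to 1.77 for Tlr9. In WT p210 against WT untransformed they were -0.59 to 0.24 for Tlr1, -0.63 to 0.40 for Tlr6, -0.00587 to 1.22 for Tlr8 and -1.73 to 0.11 for Tlr9. They were, in KO p210 against KO untransformed, -0.19 to 0.14 for Tlr4, -2.66 to 0.82 for Tlr6, -0.29 to 0.42 for Tlr13 and -0.0588 to 0.59 for Cdk6, and for the interaction -0.21 to 0.90 for Tlr2, -2.62 to 0.87 for Tlr6 and -0.17 to 0.0221 for Myd88. Other settings gave, in KO untransformed against WT untransformed, Tlr6 -0.55 in the first code. In KO p210 against WT p210 the first code gave Tlr1 0.26, Tlr7 -0.0664 and Tlr8 -0.52, the second Tlr4 -0.45 and Tlr9 -0.35, the second-run covariate Tlr1 0.0187, library size scaling Tlr4 -0.0363, the replicate block Tlr8 -0.44, and leaving out both doubted libraries Tlr4 -0.0862 and Tlr6 0.0492. The second code gave, in WT p210 against WT untransformed, Tlr1 0.94, Tlr6 0.29 and Tlr9 1.48, the first Tlr8 -0.00826, and for Tlr6 the replicate block gave 0.38, the line block 0.17, the code 0.16, the second run 1.02 and leaving out both 0.00683. Tlr4 in KO p210 against KO untransformed had 0.0110 with the code, 0.0204 with the second run, 0.10 in the first code and 0.0859 with the line block. Tlr13 there had -0.0109 with the replicate block, -0.000780 with RLE, -0.0579 with upper quartile and -0.10 with library size scaling, -0.0349 with no filter, -0.0559 without both libraries, -0.000929 in DESeq2 and -0.0112 in limma-voom. Cdk6 there had -0.21 in the second code and -0.0589 without both. For the interaction Tlr2 had -0.0372 without both and -0.16 in limma-voom, and Myd88 0.13 in the second code. The Myd88 interaction kept its sign without both, at -0.20 against -0.06. Depth limits Tlr9 most, and Tlr1 and Tlr6 share sequence.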
